A study of Bos grunniens with 18 samples.

Results

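The genes described here are 47 members of the KEGG map of glutathione metabolism, measured by RNA-seq in the whole blood of female yaks (Bos grunniens). They are the rows of the deposited annotation table that carry this map and reached 10 or more counts in at least 6 of the 18 libraries, with CHAC2 and PRDX6 left out by name. Of 20607 genes in the table, 57 carried the map, CHAC2 was 1 of these, and 9 stayed under the count minimum. The count minimum was applied over all stages together, and 40 of the 47 members reached it in all 18 libraries. The table gives 37 members a gene symbol. The other 10 have an identifier and an orthology annotation only and are named here by both.

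The study followed 6 adult cows aged 4 to 8 years, kept in the same herd, across 3 reproductive stages with 6 libraries each. Y-A stands for anestrus, Y-E for estrus and Y-P for pregnancy. Estrus in the herd was brought on with a progesterone pessary, sodium cloprostenol and GnRH, and the cows were inseminated at a set time. The sources used here do not say whether the Y-A blood was drawn before the pessary was placed. Blood was collected with EDTA and mixed with TRIzol LS, and the poly-A libraries therefore hold the RNA of all blood cells together. Fewer cells of a type and less RNA per cell cannot be told apart in such samples. The comparison of the 3 stages asks how the blood transcriptome differs between reproductive states.

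Glutathione is a tripeptide of glutamate, cysteine and glycine and the main small thiol of animal cells. Peroxidases use it to reduce hydrogen peroxide and lipid peroxides, transferases attach it to reactive compounds, and a reductase restores it with NADPH. Mature red cells depend on this cycle to protect hemoglobin, and their NADPH comes from the oxidative branch of the pentose phosphate pathway. Neutrophils draw on the same NADPH for the oxidative burst. The KEGG map also covers polyamine synthesis, because trypanothione is built from spermidine and glutathione in some parasites, and ribonucleotide reductase, which can take electrons from glutathione by way of glutaredoxin.

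By role, the members divide into 3 genes of synthesis, 6 of the gamma-glutamyl cycle and breakdown, 6 of reduction and NADPH supply, 6 peroxidases, 16 transferases, 4 genes of polyamine synthesis and 3 of ribonucleotide reductase. The remaining 3, AZIN1, RMND1 and UBL4A, carry the map in the table although their symbols belong to other proteins, so 44 members remain without them. The table also gave 30 members a gene ontology term that names glutathione and 11 members the term mitochondrion, neither of which the selection used. 11 members overlap another annotated gene. The libraries mark strand, but the sources used here do not say whether the counting used it, so reads of overlapping genes may be shared.

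The libraries held between 30247267 and 48401076 counts, of which the members took 0.258% to 0.434%. The share of hemoglobin genes ran from 3.10% to 16.7% among the Y-A libraries and from 0.0272% to 0.376% among those of Y-P. At Y-E it was 0.0899% to 0.713% for 5 libraries and 8.36% for Y-E replicate 6, which stands apart from its stage. That library has no entry in the read statistics used here that accompany the study, and it was kept in the fits unless stated otherwise. The fixed marker lists of red cells, neutrophils, monocytes, T cells, B cells, platelets and eosinophils were each detected in every library. No pair of libraries held the same counts.

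**Figure D1:**
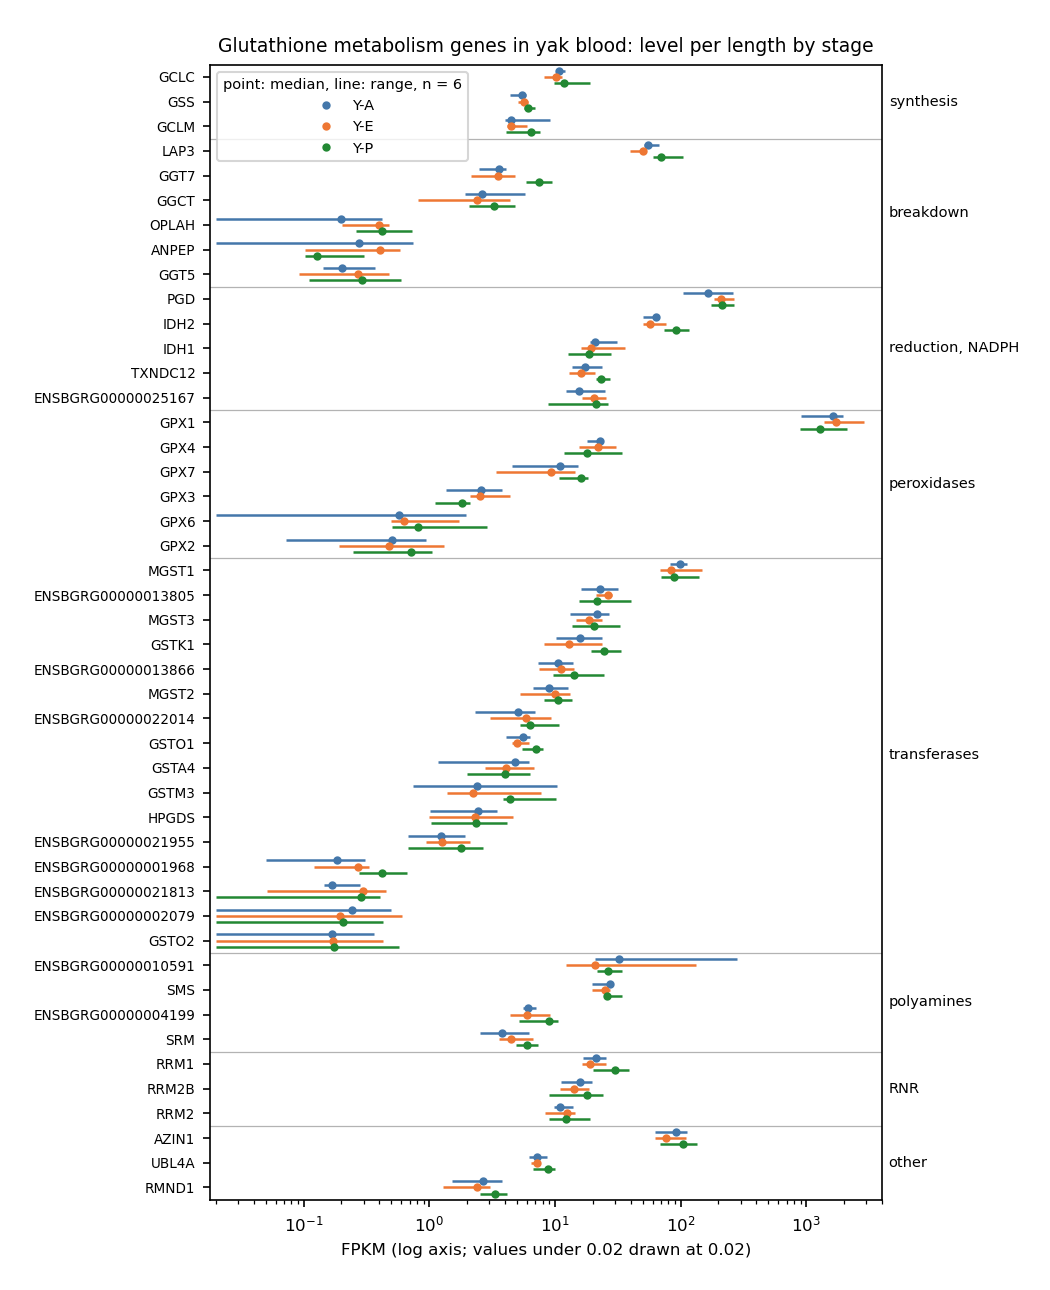
Level per transcript length of 46 members, in FPKM on a log axis, with the point at the median and the line from the lowest to the highest of 6 libraries in Y-A, Y-E and Y-P. GPX1 stands alone near the right edge at a mean of 1561 FPKM over 18 libraries, and 9 members average under 1 FPKM.

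Compared per length, in FPKM, the members spanned from GPX1 at a mean of 1561 over the 18 libraries to GSTO2 at 0.195. GPX1 encodes the cytosolic selenium-dependent glutathione peroxidase that is abundant in red cells. It alone made up 45.7% to 76.0% of the summed FPKM of the members in a library, with a median of 60.1%. Next came PGD, phosphogluconate dehydrogenase of the oxidative pentose phosphate branch, at 203 FPKM. Other high members were MGST1 at 95.1 FPKM, a microsomal glutathione transferase, AZIN1 at 91.1, IDH2 at 71.4 and LAP3 at 61.6. By class, 3 members averaged 100 FPKM or more, 19 between 10 and 100, 16 between 1 and 10, and 9 under 1. The enzymes that make glutathione lay in the middle of this range, at 11.2 FPKM for GCLC, 5.72 for GSS and 5.34 for GCLM.

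The stages were compared on counts with edgeR's quasi-likelihood test over all 14508 tested genes, and a gene was called at a Benjamini-Hochberg adjusted p under 0.05. In Y-E vs. Y-A, 0 of the 47 members were called, where 0.0207% of all tested genes were. At an unadjusted p under 0.05 there was 1 member, against 6.20% of all genes, and DESeq2 called 1 at its adjusted p beside 1.18% of the genes it gave one. In Y-P vs. Y-A, 1 member was called, GGT7, which was higher in Y-P, where 5.83% of all genes were called and 2.22% were called as higher. In Y-P vs. Y-E, 5 members were called, which is 10.6% of the members beside 14.4% of all genes. The 3 that were higher in Y-P were GGT7, LAP3 and IDH2, beside 5.77% of all genes, and 2 were lower, GPX3 among them, beside 8.68%. Over any stage, 4 members were called, GGT7, LAP3 and IDH2 among them, where 11.0% of all genes were. Counted in both directions together, the share of members called by edgeR did not exceed that of all genes in any of these tests. Without Y-E replicate 6, the calls were 0 members between Y-E and Y-A beside 0.157% of all genes, 1 between Y-P and Y-A beside 6.06%, and 6 between Y-P and Y-E beside 13.7%, where RRM1 was added.

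None of the 47 members passed a log2 fold change of 1 in either direction together with the adjusted p, in any comparison, beside 0.0138%, 1.43% and 2.67% of all genes. These shares are for Y-E vs. Y-A, then for Y-P against Y-A and against Y-E. The median log2 fold change of the members was 0.03, 0.06 and 0.08 in these 3 comparisons, taken in that order, and that of all tested genes was -0.01, 0.03 and 0.04. The 95% interval of the log2 fold change lay wholly within 1 unit of 0 for 35, 32 and 30 of the 47 members. For the others the data do not settle whether a change of that size was present. The replicate number is taken here to mark the cow, although no source says so in words, and all counts of cows below rest on this. With that number as a block, 2 members were called in Y-P vs. Y-A, beside 8.84% of all genes, and 8 in Y-P vs. Y-E, beside 18% of them. Between Y-E and Y-A the block called 0 members. The block added IDH2 to the former, and GPX7, GPX1 and GSTK1 to the latter.

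**Figure D2:**
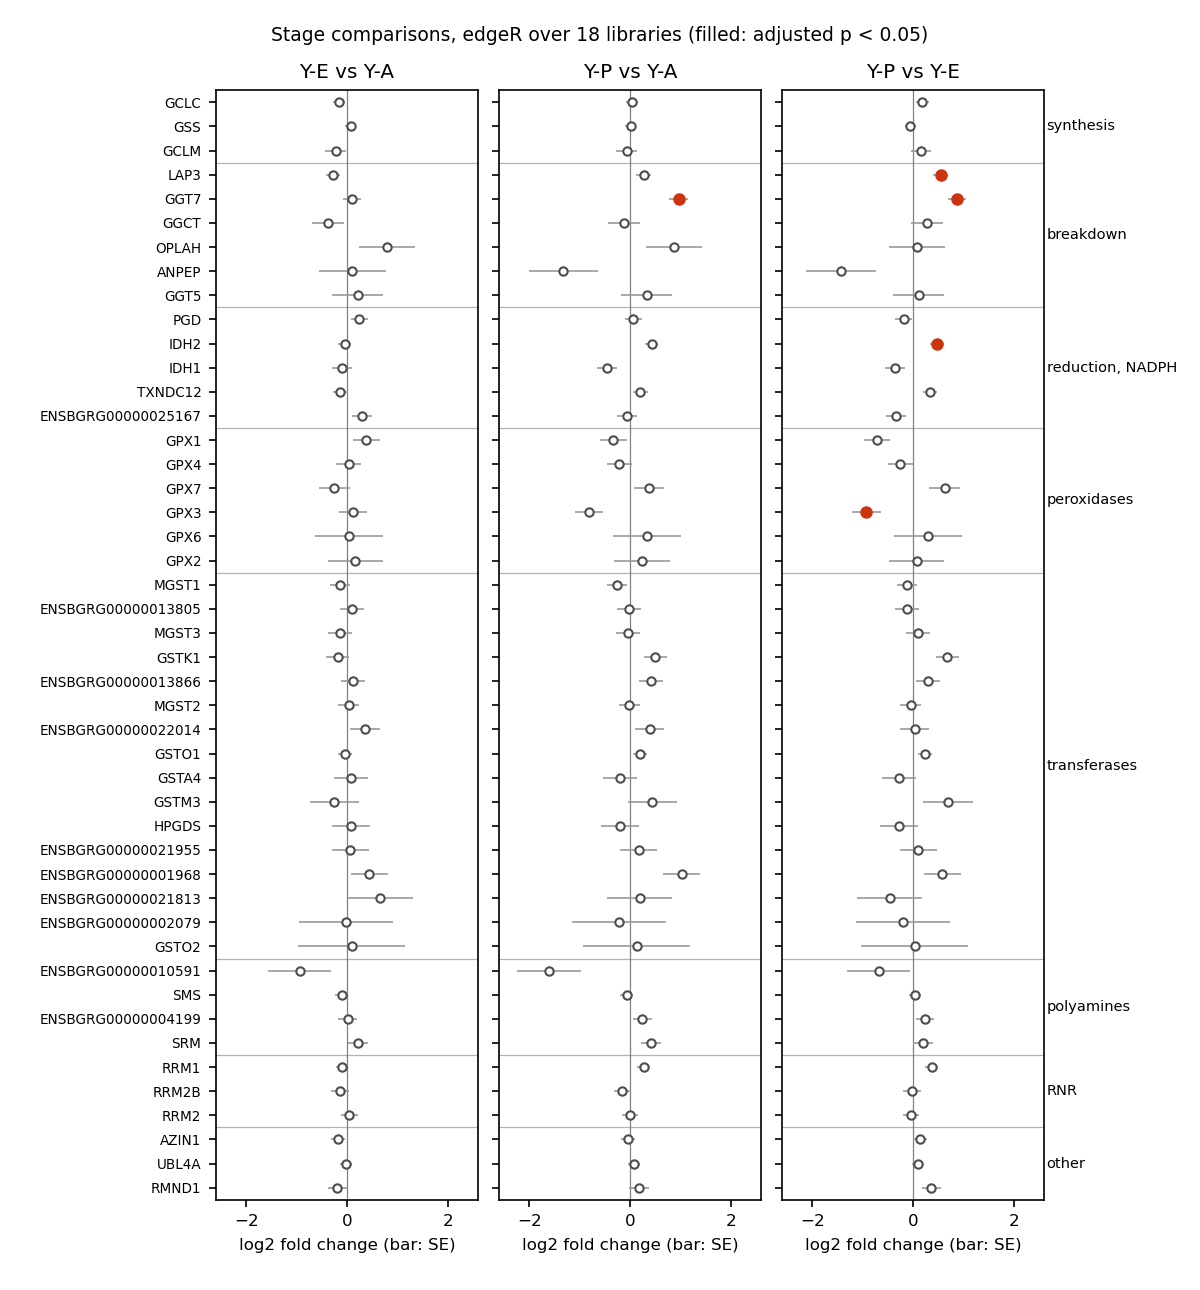
Log2 fold change of 46 members in Y-E vs. Y-A (left), Y-P against Y-A (middle) and Y-P against Y-E (right), with bars of 1 standard error and filled points for an edgeR adjusted p under 0.05. Filled points appear at GGT7 in the middle panel and at GGT7, LAP3, IDH2 and GPX3 in the right one, and no point is filled in the left panel.

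Glutathione synthesis showed no called member in any comparison. GCLC (ENSBGRG00000022619, chromosome 24, 29768160 to 29820500) encodes the catalytic subunit of glutamate-cysteine ligase, the rate-limiting step. Its lowest, median and highest CPM, the count of a gene relative to the TMM-scaled size of the library, were 36.9, 40.4 and 42.4 in Y-A, 30.8, 35.7 and 41.4 in Y-E and 35.1, 38.8 and 56.9 in Y-P. The stages overlapped, and the highest value came from Y-P replicate 4. GCLM, the modifier subunit, ran from 4.58 to 11.5 CPM in Y-A, 4.96 to 7.00 in Y-E and 4.68 to 7.44 in Y-P, with medians of 5.89, 5.39 and 6.60. GSS, glutathione synthetase, was the steadiest of all members whose lowest library was not 0, with a 1.43-fold span of CPM from the lowest to the highest of 18 libraries. Its largest log2 fold change in any comparison was 0.07 ± 0.12 (SE), in Y-E vs. Y-A.

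Of the 6 members of the gamma-glutamyl cycle and breakdown, 1 rose in Y-P vs. Y-A and 2 rose in Y-P vs. Y-E. In these comparisons 2.22% and 5.77% of all tested genes were called as higher. GGT7 (ENSBGRG00000008436, chromosome 12, 58420064 to 58444505, minus strand) is a member of the gamma-glutamyltransferase family. Enzymes of that family open the breakdown of glutathione outside the cell, an activity not measured here for GGT7. Its CPM was 7.53, 10.8 and 12.4 in Y-A, 6.74, 11.4 and 13.6 in Y-E, and 15.1, 19.4 and 27.4 in Y-P, given as lowest, median and highest. Every Y-P library lay above all 12 others. GGT7 was therefore 1 of the members with groups that do not overlap, a pattern seen in 3.56% of all genes in Y-P vs. Y-A and in 6.03% in Y-P vs. Y-E. The means were 10.3 ± 1.9, 11.0 ± 2.50 and 20.0 ± 4.37 CPM (SD, n = 6), and the log2 fold change was 0.96 ± 0.18 (SE) against Y-A (edgeR adjusted p = 0.00673) and 0.87 ± 0.18 against Y-E (edgeR adjusted p = 0.00402). It was higher in Y-P in 6 of 6 cows against each other stage, and 15.0% of all genes moved 1 way in all 6 cows against Y-A and 20.4% against Y-E. Leaving out each library in turn kept both calls, with log2 fold changes of 0.86 to 1.03 and 0.76 to 0.94.

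LAP3 (ENSBGRG00000020079, chromosome 6, 88333496 to 88358712, minus strand) is the cytosolic leucine aminopeptidase, which splits the cysteinylglycine left by glutathione breakdown. Its CPM was 125, 135 and 153 in Y-A, 101.1, 114 and 124 in Y-E, and 117, 145 and 237 in Y-P. The Y-E libraries all lay below the Y-A libraries, without a call (log2 fold change -0.28 ± 0.15, edgeR adjusted p = 0.853), and 0.303% of all genes had groups that do not overlap in that comparison. Y-P overlapped both stages and had the widest spread, with Y-P replicates 3 and 5 at 237 and 218 CPM and its other libraries at 117 to 151. LAP3 rose in Y-P vs. Y-E by 0.55 ± 0.15 on the log2 scale (edgeR adjusted p = 0.0173), in 5 of 6 cows. Against Y-A the log2 fold change was 0.27 ± 0.15 (edgeR adjusted p = 0.282).

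The other breakdown enzymes were low. GGCT, gamma-glutamylcyclotransferase, averaged 3.01 FPKM and spanned 2.06 to 14.5 CPM, with the highest value in Y-A. OPLAH, which turns 5-oxoproline back into glutamate, had medians of 0.999, 1.85 and 1.72 CPM in Y-A, Y-E and Y-P, and 1 Y-A library at 0 counts. Its log2 fold change was 0.79 ± 0.56 in Y-E vs. Y-A and 0.87 ± 0.56 in Y-P vs. Y-A, with intervals of -0.40 to 1.99 and -0.32 to 2.06. ANPEP, the surface aminopeptidase N, had medians of 1.001, 1.49 and 0.444 CPM and a log2 fold change of -1.43 ± 0.69 in Y-P vs. Y-E (edgeR adjusted p = 0.172). All 6 cows were lower in Y-P than in Y-E, although the groups overlapped, and with counts of 0 to 144 a library the depth did not settle whether OPLAH changed. A fit of Y-P and Y-E alone called ANPEP as lower (log2 fold change -1.41).

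**Figure D3:**
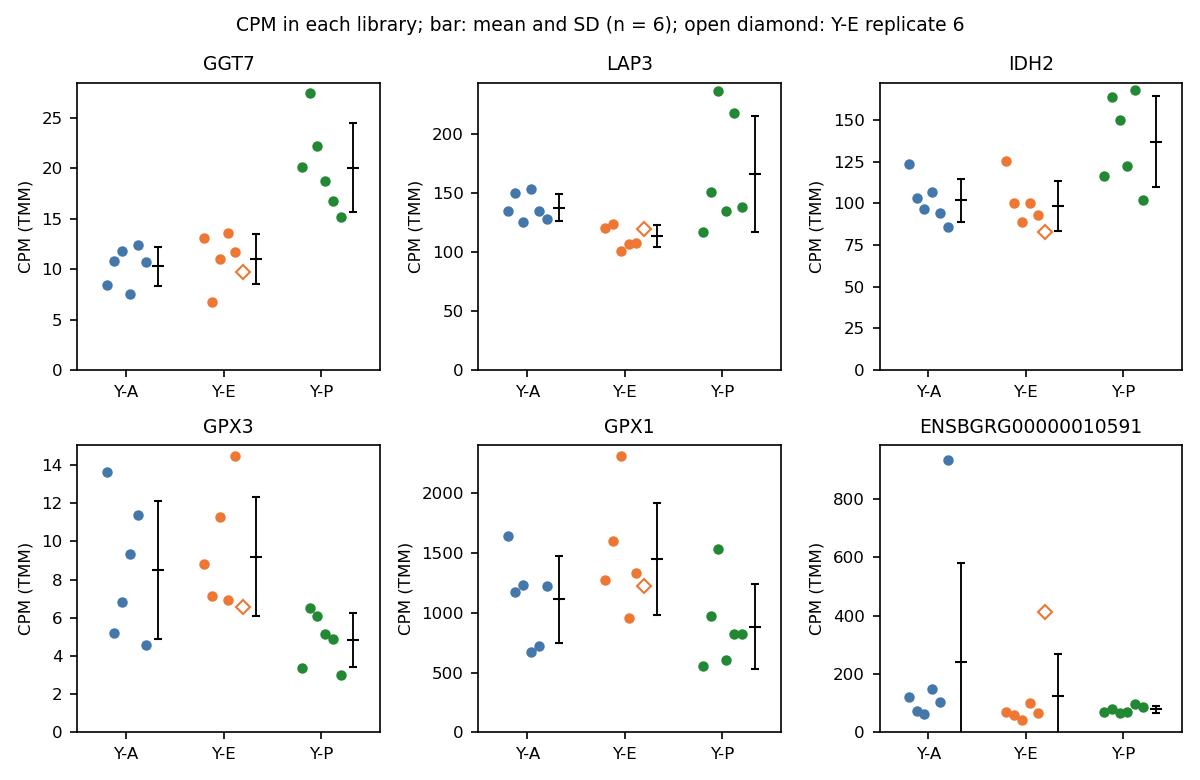
CPM in each library for GGT7, LAP3, IDH2, GPX3, GPX1 and the ornithine decarboxylase row ENSBGRG00000010591 by stage, with a bar at the mean and SD of 6 libraries, drawn down to 0 at most, and an open diamond for Y-E replicate 6. GGT7 in Y-P (15.1 to 27.4 CPM) clears both other stages, GPX3 in Y-P (3.02 to 6.52 CPM) clears Y-E only, and the other 4 genes overlap between Y-P and each other stage.

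Among the members of reduction and NADPH supply, IDH2 rose in Y-P vs. Y-E. IDH2 (ENSBGRG00000006356, chromosome 17, 22116258 to 22134622, minus strand) makes NADPH in the mitochondrion by NADP-dependent isocitrate dehydrogenation. Its CPM was 86.1, 99.9 and 124 in Y-A, 83.0, 96.6 and 126 in Y-E, and 102, 136 and 168 in Y-P. In Y-P, 3 libraries lay above all of the other stages and 3 lay within their range. IDH2 rose by 0.48 ± 0.13 on the log2 scale in Y-P vs. Y-E (edgeR adjusted p = 0.0218), in 5 of 6 cows. In Y-P vs. Y-A the log2 fold change was 0.43 ± 0.13 (edgeR adjusted p = 0.0608, and 0.0405 with the replicate block). The call in Y-P vs. Y-E was lost in 3 of 18 fits that left out a library, without Y-E replicate 3, Y-E replicate 5 or Y-P replicate 5.

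IDH1, the cytosolic counterpart of IDH2, had medians of 61.4, 55.9 and 44.6 CPM in Y-A, Y-E and Y-P and was not called (log2 fold change -0.45 ± 0.20 in Y-P vs. Y-A, edgeR adjusted p = 0.18). The log2 ratio of IDH1 to IDH2 within a library, from FPKM + 0.1, averaged -1.42 ± 0.41 at Y-A, -1.50 ± 0.59 at Y-E and -2.29 ± 0.58 at Y-P (SD, n = 6). It was lower in Y-P by 0.87 than in Y-A (exact two-sided permutation test, p = 0.0152, adjusted p = 0.136 over 9 ratio tests). Against Y-E the difference was -0.79 (exact permutation p = 0.0411, adjusted p = 0.185). The smallest p that 6 against 6 libraries allow is 0.00216, and none of the 9 ratio tests passed after adjustment. Y-E replicate 6 held the highest ratio of its stage at -0.54, and without it the difference between Y-P and Y-E was -0.60.

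PGD ran from 237 to 565 CPM in Y-A, 390 to 597 in Y-E and 348 to 489 in Y-P, with overlapping stages and log2 fold changes of 0.24, 0.06 and -0.18 in Y-E vs. Y-A, Y-P against Y-A and Y-P against Y-E. The row annotated as glutathione reductase (ENSBGRG00000025167) had medians of 50.1, 64.2 and 54.9 CPM and log2 fold changes of 0.29, -0.06 and -0.35, none of them called. TXNDC12, a thioredoxin-fold protein of the endoplasmic reticulum, averaged 19.3 FPKM and was not called either.

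**Figure D4:**
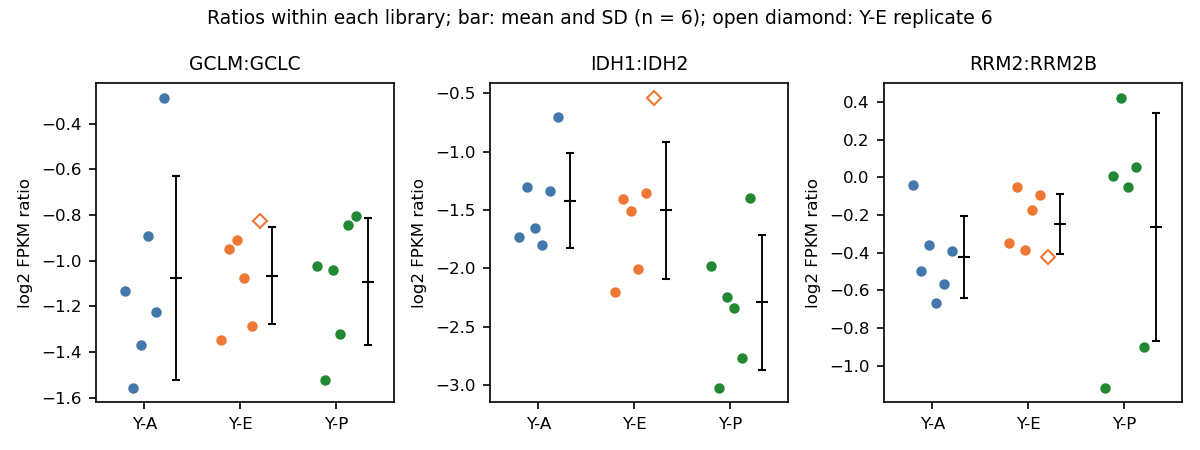
Log2 ratio of FPKM within each library for GCLM to GCLC, IDH1 to IDH2 and RRM2 to RRM2B by stage, with a bar at the mean and SD of 6 libraries and an open diamond for Y-E replicate 6. The IDH1 to IDH2 ratio averages -2.29 in Y-P and -1.42 and -1.50 in Y-A and Y-E, and the libraries of the stages overlap in all 3 ratios.

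Among the 6 peroxidases, 1 fell in Y-P vs. Y-E, where 8.68% of all tested genes were called as lower. GPX3 (ENSBGRG00000006702, chromosome 8, 68077827 to 68087093, plus strand) encodes the secreted plasma glutathione peroxidase and overlaps TNIP1 on the opposite strand. Its CPM was 4.55, 8.08 and 13.6 in Y-A, 6.59, 7.99 and 14.5 in Y-E, and 3.02, 5.02 and 6.52 in Y-P. Every Y-P library lay below every Y-E library, with the nearest values at 6.52 and 6.59 CPM, while Y-A spanned both. GPX3 fell by 0.93 ± 0.28 on the log2 scale in Y-P vs. Y-E (edgeR adjusted p = 0.0351), and in Y-P vs. Y-A the log2 fold change was -0.81 ± 0.28 (edgeR adjusted p = 0.0939). The call held in 11 of 18 fits that left out a library, among them every fit without a Y-A library, a stage outside this comparison. It was lost in each fit without Y-E replicate 1, 3 or 5, or Y-P replicate 1, 4, 5 or 6. The highest edgeR adjusted p in the fits that lost it was 0.101.

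GPX1 (ENSBGRG00000019961, chromosome 22, 11479474 to 11480352, minus strand) was not called in any comparison. Its CPM was 672, 1202 and 1648 in Y-A, 961, 1305 and 2314 in Y-E, and 552, 823 and 1535 in Y-P. The stages overlapped widely, with Y-E replicate 3 the highest of all libraries and Y-P replicate 1 the lowest. All 6 cows were lower in Y-P than in Y-E. The log2 fold change was -0.71 ± 0.26 (edgeR adjusted p = 0.075), and the same comparison with the replicate block gave -0.72 with an adjusted p of 0.0176. GPX4, which reduces lipid peroxides in membranes, averaged 21.9 FPKM and had log2 fold changes of 0.03, -0.21 and -0.25, none called. GPX7, a peroxidase of the endoplasmic reticulum, had medians of 9.30, 8.62 and 12.5 CPM and a log2 fold change of 0.63 ± 0.30 in Y-P vs. Y-E (edgeR adjusted p = 0.172, and 0.0126 with the replicate block). GPX2 and GPX6 averaged under 1 FPKM.

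None of the 16 transferases was called in any comparison. MGST1 led them and ran from 47.0 to 68.6 CPM in Y-A, 40.7 to 83.1 in Y-E and 33.6 to 80.5 in Y-P, with medians of 59.7, 49.9 and 47.3. The highest Y-E value came from Y-E replicate 6. GSTK1, the mitochondrial and peroxisomal kappa class enzyme, had medians of 15.6, 12.9 and 20.6 CPM. Its log2 fold change in Y-P vs. Y-E was 0.68 ± 0.23 (edgeR adjusted p = 0.0539, and 0.0342 with the replicate block), higher in 5 of 6 cows. The row ENSBGRG00000001968, annotated as a glutathione transferase, was low at 0.28 to 2.88 CPM and was higher in Y-P than in Y-A in 6 of 6 cows, with a log2 fold change of 1.03 ± 0.37 (edgeR adjusted p = 0.105). It overlaps ENSBGRG00000002079, another transferase row on the same strand, so reads between them are uncertain. HPGDS, the hematopoietic prostaglandin D synthase of the same family, averaged 2.55 FPKM with a log2 fold change of -0.27 in Y-P vs. Y-E. Over the 16, the log2 fold change ranged from -0.46 to 0.69 in Y-P vs. Y-E with a median of 0.03.

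In polyamine synthesis, the row annotated as ornithine decarboxylase (ENSBGRG00000010591, chromosome 9, 113324013 to 113329935) was the most uneven member. The main fit over all 18 libraries did not call this gene in any comparison. It makes putrescine, the first polyamine. Its CPM was 63.5, 114 and 931 in Y-A, 42.6, 67.4 and 414 in Y-E, and 67.9, 75.3 and 97.3 in Y-P. The highest Y-A and the highest Y-E value both came from the libraries numbered 6, and all other libraries lay between 42.6 and 147 CPM. Those same 2 libraries had the highest summed CPM of the red cell marker list, 10579 in Y-A replicate 6 and 4496 in Y-E replicate 6, against 39.0 to 2045 in the others. The part of red cell RNA in the level of this gene was not tested. The log2 fold change in Y-P vs. Y-A was -1.61 ± 0.64 (edgeR adjusted p = 0.137), and -0.41 without Y-A replicate 6. Over any stage it was called without Y-E replicate 6 (edgeR adjusted p = 0.0399). SMS, spermine synthase, SRM, spermidine synthase, and a pseudogene row annotated as spermine synthase (ENSBGRG00000004199) had log2 fold changes of -0.11 to 0.42 over the 3 comparisons.

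Ribonucleotide reductase had no called member. RRM1, its large subunit, ran from 56.3 to 72.5 CPM in Y-A, 53.05 to 74.5 in Y-E and 57.6 to 103 in Y-P, with medians of 63.6, 57.7 and 77.1. The log2 fold change in Y-P vs. Y-E was 0.37 ± 0.13 (edgeR adjusted p = 0.0573), and 0.44 without Y-E replicate 6 (edgeR adjusted p = 0.0299). The small subunits, RRM2 of dividing cells and the p53-induced RRM2B, had log2 fold changes between -0.15 and 0.04 over the 3 comparisons. Their ratio within a library varied most in Y-P, at a log2 value of -0.26 ± 0.60 against -0.42 ± 0.22 in Y-A and -0.25 ± 0.16 in Y-E (SD, n = 6). AZIN1, the antizyme inhibitor that spares ornithine decarboxylase, had medians of 192, 161 and 185 CPM and was not called.

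**Figure D5:**
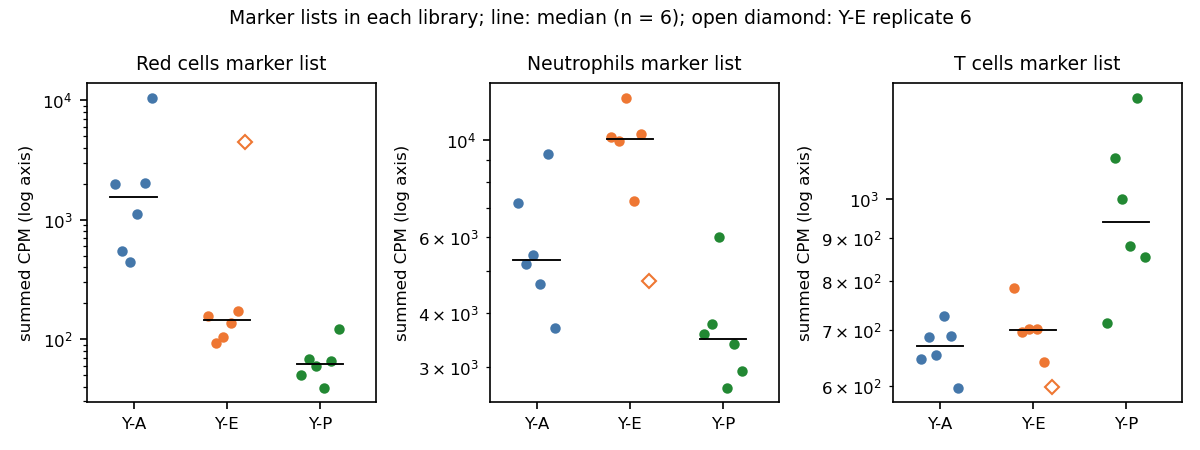
Summed CPM of the red cell, neutrophil and T cell marker lists in each library on log axes, with a line at the median of 6 libraries and an open diamond for Y-E replicate 6. Red cell and neutrophil sums are lower in Y-P (medians 62.2 and 3481) than in Y-E (146 and 10094), and T cell sums are higher (941 against 699).

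Markers of some blood cell types moved between the same stages as the called members. The neutrophil list, 6 of 9 markers in the table, summed to 4741 to 12558 CPM in Y-E and 2685 to 5976 in Y-P, and 5 of the 6 fell in Y-P vs. Y-E. The T cell list, 4 of 6 in the table, summed to 599 to 785 CPM in Y-E and 713 to 1320 in Y-P, and 3 of the 4 rose against each other stage. The red cell list, 5 of 8 in the table, summed to 439 to 10579 CPM in Y-A, 92.6 to 4496 in Y-E and 39.0 to 122 in Y-P, with 5 of 5 lower in Y-P vs. Y-A and 4 of 5 in Y-P vs. Y-E. None of the markers in the table stood at 3 counts or fewer in all libraries. Platelet markers were lower in Y-P as well, 2 of 3 against each other stage. None of the 4 monocyte, 5 B cell and 3 eosinophil markers tested was called in any comparison. Of all tested genes, 5.83% were called in Y-P vs. Y-A and 14.4% in Y-P vs. Y-E.

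Values of called members moved when a marker list entered the model beside the stage. With the neutrophil list, the log2 fold change in Y-P vs. Y-E went from -0.93 to -0.10 for GPX3 (edgeR adjusted p = 0.888). GGT7 stayed called in that fit at 1.08 (edgeR adjusted p = 0.0413) and IDH2 at 0.76 (edgeR adjusted p = 0.0392), while LAP3 at 0.67 did not pass (edgeR adjusted p = 0.0739). The ornithine decarboxylase row (ENSBGRG00000010591) gained a call as lower in Y-P, at -2.12 against Y-A and -2.21 against Y-E (edgeR adjusted p = 0.0112 and 0.0368). With the red cell list in place of the neutrophil list, that row was not called in either comparison. With the red cell list, GGT7 at 0.89 stayed called in Y-P vs. Y-E (edgeR adjusted p = 0.0253). In Y-P vs. Y-A, GGT7 kept its size at 1.02 in that fit but not its call (edgeR adjusted p = 0.255). The lists themselves differ between the stages, so a share of the stage difference and of the list cannot be told apart in these fits.

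The other genes around glutathione were taken from 6 fixed lists of 44 symbols, of which 29 were tested. In Y-E vs. Y-A none of the 29 was called, and without Y-E replicate 6 there was 1, SLC25A39 (log2 fold change -2.80 in place of -1.76, edgeR adjusted p = 0.0194 in place of 0.532). In Y-P vs. Y-A, 1 was called, SLC25A39 again, the carrier that brings glutathione into the mitochondrion. Its CPM was 145, 424 and 1261 in Y-A and 48.2, 62.7 and 95.1 in Y-P, with no overlap and a log2 fold change of -3.08 ± 0.63 (edgeR adjusted p = 0.00989), beside the fall of the red cell list in that comparison. The part of red cell RNA in the level of SLC25A39 was not tested. Its log2 fold change in Y-P vs. Y-E was -1.32, and -0.28 without Y-E replicate 6. In Y-P vs. Y-E, 3 of the 29 rose and 4 fell, which is 24.1% beside 14.4% of all genes, and without Y-E replicate 6 it was 1 that rose and 3 that fell, 13.8% beside 13.7%. Those that rose belong to the glutaredoxins and glyoxalases, 3 of 5 tested, namely GLRX5, the mitochondrial glutaredoxin of iron-sulfur cluster assembly (log2 fold change 0.59), and ESD and ADH5 (0.52 and 0.45), which clear S-formylglutathione and the glutathione adduct of formaldehyde. Without Y-E replicate 6, GLRX5 and ADH5 lost the call (edgeR adjusted p = 0.0816 and 0.0584), and with the replicate block ADH5 did (0.0511).

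Those that fell were a pair from the regulators around NRF2 and a pair from the list of pentose phosphate and malic enzyme genes. NFE2L2, which encodes the antioxidant transcription factor NRF2, was at 124, 176 and 231 CPM in Y-P and 194, 272 and 340 in Y-E (log2 fold change -0.56 ± 0.17, edgeR adjusted p = 0.0329, and 0.0553 without Y-E replicate 6). BACH1, a repressor at the same DNA elements, was at 64.6, 111 and 155 CPM in Y-P and 136, 205 and 234 in Y-E (log2 fold change -0.83 ± 0.20, edgeR adjusted p = 0.0102). TKT, the transketolase of the non-oxidative pentose phosphate branch, was at 747, 935 and 1182 CPM in Y-P and 1187, 1425 and 1958 in Y-E, with no overlap between the stages. Its log2 fold change was -0.64 ± 0.17 (edgeR adjusted p = 0.0166). ME1, the cytosolic malic enzyme, was low at 0.325 to 5.15 CPM and was lower, at a log2 fold change of -1.90 (edgeR adjusted p = 0.0153). None of the 4 tested genes of the thioredoxin arm and none of the 5 of selenoprotein synthesis was called in any comparison. With the replicate block, SRXN1, the sulfiredoxin of the thioredoxin arm, and HMOX1, the heme oxygenase of the NRF2 list, were called as lower in Y-P vs. Y-E (edgeR adjusted p = 0.0168 and 0.0139).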

How the data were processed

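Whole-blood RNA-seq of 18 yak libraries was analysed as 3 stages of 6, grouped by the condition given in the labels. The authors trimmed reads with Cutadapt 1.9, aligned them to the Bos grunniens genome with HISAT2 2.2.1 and assembled and quantified transcripts with StringTie 2.1.6, as the methods and the submitters' processing notes state. The counts used here are the gene counts the authors deposited, without scaling. The FPKM values were likewise deposited by the authors and served only to compare levels between genes and for ratios within a library. The counting tool's strand setting and the assembly name are not given in the sources used here, and coordinates are those of the deposited table.

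Counts were scaled by TMM, filtered with filterByExpr and fitted with edgeR 4.0.16 (glmQLFit, glmQLFTest, two-sided, R 4.3.3) over all 18 libraries with stage as the term, and p-values were adjusted by Benjamini-Hochberg over 14508 genes. CPM are on TMM-scaled library sizes. Ratios used log2 of FPKM + 0.1 with an exact permutation test. The script was tested on simulated counts, where fold changes came back without bias but changes no larger than the fold threshold were often missed. A value with 3 counts or fewer was treated as at the floor of detection. Intervals cover the spread between libraries at this depth, and p-values rest on 6 cows of the same herd. The main fit and the exact permutation tests took the libraries as independent, although the same cows were drawn at each stage.

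Alternatives were other scalings and filters, DESeq2 1.42.0, limma 3.58.1 on log2(FPKM + 1) and log2(FPKM + 0.1), marker lists as covariates, the hemoglobin genes left out, each library left out, and the replicate number as a block. The study drew 6 cows repeatedly and the libraries of each stage carry numbers 1 to 6, which are taken to mark the cows although no source says so in words. Same-numbered libraries deviated together from their stage means with correlations over all genes of 0.110 to 0.515 in Y-E and Y-A, -0.0492 to 0.369 in Y-P and Y-A, and -0.0544 to 0.400 in Y-P and Y-E. Named are the called members, the member of each role with the highest mean FPKM, the 3 largest fold changes of each comparison at a mean CPM of at least 1, and both members of each ratio, 18 in all. The result for 1 further member is not reported here, although that member stays in the fits and in the counts of members. Other members given with values, and the other named genes, were chosen after their values were seen or come from the listed genes. The members and lists were chosen with earlier results of these data known. No sequence or promoter was used here.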

Additional observations from a re-analysis of the deposited data

Results flagged for a closer look

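The values of the 18 named members and of the 3 ratios were searched in each stage, 63 groups of 6 libraries, for a highest or lowest library whose gap to its nearest neighbour exceeded Dixon's critical share of the group's range. Chance marks about 1 in 20 such groups, and 5 values were marked. Of these, 4 lay in libraries numbered 6. The ornithine decarboxylase row (ENSBGRG00000010591) was at 931 CPM in Y-A replicate 6 and at 63.5 to 147 in the other Y-A libraries, and at 414 CPM in Y-E replicate 6 and at 42.6 to 102 in the other Y-E libraries. GCLM was at 11.5 CPM in Y-A replicate 6, where the other Y-A libraries held 4.58 to 6.92. MGST1 was at 83.1 CPM in Y-E replicate 6, where the others of its stage held 40.7 to 54.7. GCLC was at 56.9 CPM in Y-P replicate 4 and at 35.1 to 41.5 in the other Y-P libraries.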

How the results depend on the processing

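Of 1674 log2 fold changes of named members under the alternatives, 1625 kept their side of the threshold, 20 lost the call and 29 gained one. The direction of a call was reversed in 0. Among the 1519 values without a call in the main fit, 96 took the other sign. Low members and the single herd limit what the data can show, and scaling by library size alone moved the median log2 fold change of all genes to 0.19 in Y-P vs. Y-A and 0.18 in Y-P vs. Y-E, so that changes under it lean upward. The cause of the changes below was not tested.

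In Y-E vs. Y-A, 0 members were called under every alternative except DESeq2, which called 1. The DESeq2 shares in this paragraph are of the genes it gave an adjusted p, and in Y-E vs. Y-A the share was 1.18%. In Y-P vs. Y-A, where 1 member was called, library size alone gave 2 (9.19% of all genes), DESeq2 2 (10.9%), the neutrophil list as a covariate 3 (5.14%), limma 6 with FPKM + 1 (14.6%) and 5 with FPKM + 0.1 (13.3%), and the red cell list as a covariate 0 (0.0138%). In Y-P vs. Y-E, where 5 members were called, 3 of them higher, the red cell covariate gave 2 (8.33%) and the neutrophil covariate 3 (3.43%). DESeq2 gave 8 there (20.7%). Limma gave 8 with either pseudocount (21.2% and 20.2%), 7 of them higher, beside 16.5% and 15.6% of all genes. Library size alone gave 7 (17.6%), of which 6 were higher, beside 12.4% of all genes. Over any stage, where 4 were called, the red cell covariate gave 1 (4.27%) and limma 8 with FPKM + 1 (18.1%) and 7 with FPKM + 0.1 (17.3%).

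With a fold threshold added, 0 members passed in Y-P against either other stage, while library size alone and limma with FPKM + 0.1 each gave 1 in both, the neutrophil covariate gave 2 in both, and a fit of the 2 stages alone gave 1 in Y-P vs. Y-E. The share of all genes is not given for these fits, so the counts are not read as a trait of the members. The median of all genes against Y-A and Y-E was 0.19 and 0.18 with library size alone, and 0.22 and 0.21 with limma on FPKM + 0.1.

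Leaving out each library in turn gave 0 calls in Y-E vs. Y-A, beside 0.0204% to 0.157% of all genes. It gave 1 to 2 in Y-P vs. Y-A, beside 2.63% to 7.36%, and 3 to 7 in Y-P vs. Y-E, beside 9.37% to 15.7%. Over any stage it gave 2 to 4, beside 7.48% to 11.7%. Past both thresholds there were 0 to 1 in Y-P against either other stage, for which no share of all genes is given. Without Y-P replicate 1 or Y-P replicate 6, 2 members were called in Y-P vs. Y-A, beside 7.36% and 5.46% of all genes. Without Y-E replicate 3, Y-E replicate 5 or Y-P replicate 5, 3 were called in Y-P vs. Y-E, beside 9.75%, 9.37% and 11.0%. Over any stage, 2 were called without Y-E replicate 2, 3 or 5 or Y-P replicate 3 or 5, beside 7.48% to 8.07%. The IDH1 to IDH2 difference in Y-P vs. Y-A ran from -1.05 to -0.72, and without Y-P replicate 6 it was -1.05 with an adjusted p of 0.0195 in the exact permutation test.

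With the replicate block, 2 members were called in Y-P vs. Y-A and 8 in Y-P vs. Y-E, 5 of them higher, and without Y-E replicate 6 the block gave 1 and 8, 6 of them higher. The exact sign-flip test of the paired ratio differences gave p = 0.0312 for IDH1 to IDH2 in Y-P vs. Y-A, the smallest that 6 pairs allow. That ratio did not pass after adjustment. Over any stage the block gave 5 members beside 14.3% of all genes, with GPX7 and GPX1 gained and LAP3 lost.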

Other observations

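In all 6 cows, 2 members moved the same way between Y-E and Y-A, 3 between Y-P and Y-A and 7 between Y-P and Y-E, beside 7.08%, 15.0% and 20.4% of all genes. Some of these were not called in the main fit. Of the differences named next, the replicate block called only that of GPX1. The transferase row ENSBGRG00000001968 was higher in Y-P than in Y-A and in Y-E in 6 of 6 cows, at a log2 fold change of 1.03 and 0.58. GPX1 and ANPEP were lower in Y-P than in Y-E in 6 of 6 cows, at -0.71 and -1.43. LAP3 was lower in Y-E than in Y-A in 6 of 6 cows, at -0.28, the comparison in which 0 members were called.

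Summed per role in FPKM, which is a level per length, the gamma-glutamyl cycle and breakdown group held 57.4 to 73.7 in Y-A, 46.1 to 61.1 in Y-E and 72.8 to 117 in Y-P, and most of each sum was LAP3. The reduction and NADPH group held 293 to 488 in Y-A, 413 to 526 in Y-E and 413 to 526 in Y-P. The transferases held 185 to 222, 168 to 237 and 169 to 300 in the same order. The share of GPX1 in the summed FPKM of all members had a median of 60.5%, 64.7% and 52.3% in that order, with overlapping ranges. FPKM was not rescaled between libraries, and limma on log2(FPKM + 0.1) put the median of all genes 0.22 above 0 in Y-P vs. Y-A.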
